A study of Homo sapiens with 8 samples.

Results

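The fuel-switch genes described here decide whether a cell burns pyruvate or fatty acids. They are the 4 pyruvate dehydrogenase kinase genes (PDK1, PDK2, PDK3 and PDK4), the phosphatase gene PDP1, the secreted lipase inhibitor ANGPTL4, the carnitine palmitoyltransferases CPT1A and CPT2, and the nuclear receptors PPARA and PPARD. They were taken by gene name, which found 10 of 10, each under 1 identifier, among 19158 genes. RNA was measured in A549, an established epithelial line from a human lung adenocarcinoma, labelled wild type and grown in DMEM with serum. There were 4 untreated wells and 4 wells given dexamethasone, a synthetic glucocorticoid, at 1 µM for 48 h, numbered 1, 3, 4 and 5 in both groups and all labelled as batch 1. The wells come from 1 cell line, so p-values measure the spread between wells.

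Pyruvate dehydrogenase turns pyruvate into acetyl-CoA in the mitochondrion. PDK enzymes phosphorylate and switch off its E1 subunit, and PDP enzymes remove the phosphate. When the kinases prevail, carbohydrate carbon is spared and fatty acids, carried into the mitochondrion by CPT1A and CPT2, supply the acetyl-CoA. PPAR receptors sense fatty acids and drive many genes of this switch, PDK4 and ANGPTL4 among them, and glucocorticoids are known to raise both genes in fasting tissues.

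Dexamethasone raised PDK4 and ANGPTL4 and no other of the 10 genes passed the test. PDK4 rose 7.9-fold in mean FPKM and ANGPTL4 rose 13.9-fold. FPKM are fragments per kilobase of transcript at a common depth, printed here after scaling between libraries, and gene differences were tested with limma on log2(FPKM + 1), two-sided, with Benjamini-Hochberg adjustment over 12161 genes. All 10 genes passed the filter on low values. The 2 called genes are 20% of the 10, against 26.8% of all genes tested that were called in either direction and 12.6% that were called higher. By size, ANGPTL4 had the 21st and PDK4 the 50th largest rise of log2(FPKM + 1) among the genes tested. The median log2 fold change was 0.15 over the 10 genes and 0.01 over all genes.

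The bases before the transcription starts of the called genes are shown because these are the genes of the group whose RNA rose. The windows are RefSeq sequences of GRCh38.p14, each running 5′ to 3′ on the gene's own strand up to the base before the start. Capitals mark the motif matches named after them.
PDK4: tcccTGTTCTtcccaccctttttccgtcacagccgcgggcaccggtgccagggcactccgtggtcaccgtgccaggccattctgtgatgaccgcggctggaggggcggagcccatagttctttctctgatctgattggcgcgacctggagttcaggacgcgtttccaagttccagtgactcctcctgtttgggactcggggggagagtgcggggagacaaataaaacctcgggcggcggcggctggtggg
ANGPTL4: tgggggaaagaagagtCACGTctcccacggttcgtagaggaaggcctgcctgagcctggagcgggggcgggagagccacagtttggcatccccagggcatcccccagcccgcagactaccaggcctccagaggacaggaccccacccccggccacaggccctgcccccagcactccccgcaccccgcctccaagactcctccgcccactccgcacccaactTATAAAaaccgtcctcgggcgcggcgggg
The PDK4 window lies at chr7:95596517-95596766 on the minus strand and has 62.8% G and C. It overlaps first exons of the antisense RNA gene PDK4-AS1 in GENCODE v44. The ANGPTL4 window lies at chr19:8363905-8364154 on the plus strand and has 68.8% G and C. Neither window overlaps an exon of its own gene in GENCODE v44. The ANGPTL4 window lies inside the gene interval that the files give, which starts further upstream.

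Motifs were searched on both strands of the 300 bases around each start, 250 before it and 50 from it on. The PDK4 capitals are the reverse complement of the glucocorticoid receptor monomer site AGAACA, starting 246 bases before the start. This monomer site was in 14.8% of 35116 human windows of the same length, and of the other genes here it was found in PPARD. The first ANGPTL4 capitals are the reverse complement of the hypoxia response core ACGTG. That core was present in 21.4% of windows and also in PDK1, PDK2 and PDK3. The other ANGPTL4 capitals are a TATA box, TATAAA, starting 29 bases before the start. The TATA box and the looser glucocorticoid element were added to the search after the windows had been read. The TATA box was in 11.5% of all windows, and PDK1 held it too. No window of the 9 genes matched held the full glucocorticoid element (AGAACA and TGTTCT 3 bases apart), its looser form (GNACA and TGTNC 3 bases apart), the PPAR element (AGGTCA repeated with 1 base between), the single AGGTCA, or the FOXO site GTAAACA. These were found in 0.00285%, 0.39%, 0.0228%, 13.8% and 3.42% of windows. PDP1 was not matched. No overlap between motifs was present in the printed windows.

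PDK4, the kinase isoenzyme known for its response to fasting (ENSG00000004799, chromosome 7, 95583499 to 95596491, GRCh38), stood at 4.35, 5.22, 5.67 and 2.04 FPKM without treatment (replicates 1, 3, 4 and 5). After dexamethasone it stood at 41.9, 34.8, 36.8 and 23.1 FPKM. The groups did not overlap, and replicate 5 was the lowest library of both. Means were 4.32 ± 1.62 and 34.1 ± 7.97 FPKM (n = 4 each, SD), a log2 fold change of 2.75 (adjusted p = 7.9e-05 by limma, SE 0.269). PDK4-AS1 overlaps PDK4 on the opposite strand. Whether the authors counted by strand is not given in the sources used here, so reads of the pair cannot be told apart.

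PDK1, the kinase isoenzyme known for its response to low oxygen (ENSG00000152256, chromosome 2, 172555373 to 172608669), had the lowest mean FPKM of the 10 genes in both groups. It stood at 0.778, 0.753, 0.867 and 0.555 FPKM in the untreated libraries and at 0.952, 1.24, 1.02 and 0.827 FPKM after dexamethasone. Its groups overlapped, and its log2 fold change was 0.21 (adjusted p = 0.147 by limma, SE 0.0987). With each library's trend with the GC content of the transcripts removed, the value was -0.07.

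PDK2, a widely expressed isoenzyme (ENSG00000005882, chromosome 17, 50094737 to 50112152), was the most abundant kinase transcript in untreated cells. It stood at 7.34, 6.92, 6.22 and 14.7 FPKM there and at 6.71, 7.29, 7.53 and 8.72 FPKM after dexamethasone. Untreated replicate 5 lay apart from the other 7 libraries. The log2 fold change was -0.13 (adjusted p = 0.713 by limma, SE 0.233), and it was 0.11 without untreated replicate 5 and 0.11 with the GC trend removed, so no direction is given. PDK2 overlaps the coding gene SAMD14 on the opposite strand.

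PDK3 (ENSG00000067992, chromosome X, 24465221 to 24541862) stood at 4.95, 4.39, 3.92 and 4.66 FPKM in untreated and 3.37, 3.6, 3.36 and 2.64 FPKM in dexamethasone libraries. Every dexamethasone value lay below every untreated value. The groups of 3 of the 10 genes (PDK3, PDK4 and ANGPTL4) did not overlap, as was so for 31.4% of all genes tested. The log2 fold change of PDK3 was -0.37 (95% interval -0.65 to -0.09, SE 0.125) and missed the threshold (limma adjusted p = 0.0542). With the GC trend removed it was -0.45 and passed (limma adjusted p = 0.00755), and without the filter on low values it was -0.37 and passed (limma adjusted p = 0.046).

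**Figure D1:**
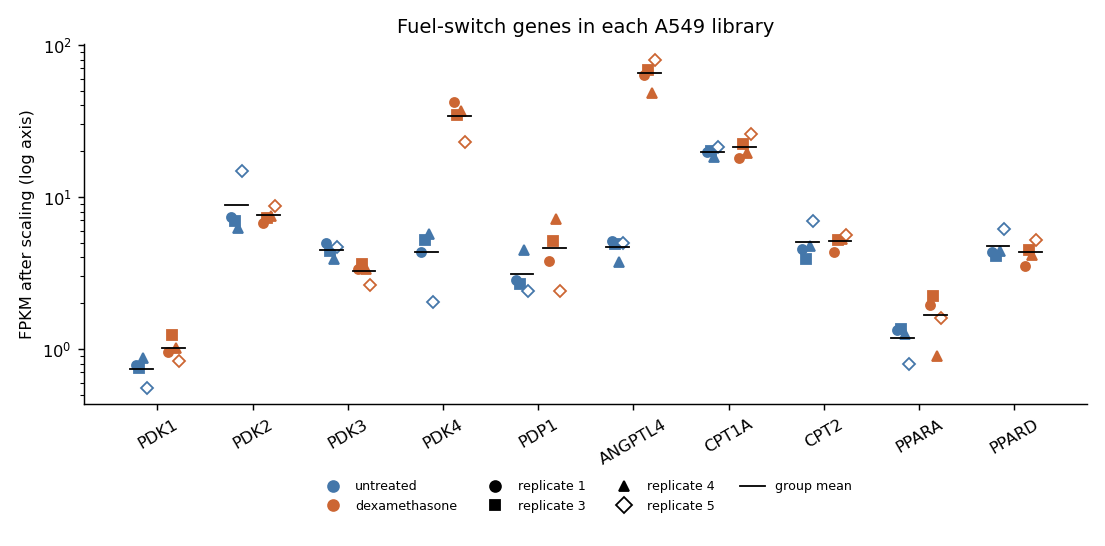
FPKM after scaling of the 10 genes on a log axis, 1 point per library, blue for untreated and orange for dexamethasone, with the symbol giving the replicate number and the black line the group mean. PDK4 and ANGPTL4 are the genes whose groups lie far apart, at means of 4.32 against 34.1 and 4.67 against 64.9 FPKM.

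The make-up of the kinase pool changed with PDK4. PDK4 made up 25, 30.2, 34 and 9.29% of the summed FPKM of the 4 kinases in untreated replicates 1, 3, 4 and 5, and 79.1, 74.1, 75.6 and 65.4% after dexamethasone. The mean share was 24.6% ± 10.9 in untreated and 73.6% ± 5.83 in dexamethasone libraries (n = 4 each, SD, exact permutation two-sided p = 0.0286, and p = 0.0286 after adjustment over the 3 kinase measures). That is the smallest p that 4 against 4 libraries allow. PDK2 went from the leading isoenzyme, with 46.6% ± 13.7 of the pool, to 17.1% ± 5.26 (n = 4 each, SD), and this share depends on the same sum. Shares between genes also rest on the transcript lengths behind the FPKM, which are not given in the sources used here.

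The summed kinase level was 18.3 ± 2.45 FPKM in untreated and 46 ± 7.57 FPKM in dexamethasone libraries (n = 4 each, SD), 2.51-fold higher (exact permutation p = 0.0286, two-sided, adjusted p = 0.0286). The sum of PDK1, PDK2 and PDK3 alone was 13.1, 12.1, 11 and 19.9 FPKM untreated and 11, 12.1, 11.9 and 12.2 FPKM after dexamethasone. Those values overlap, so the difference in the sum lay in PDK4.

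**Figure D2:**
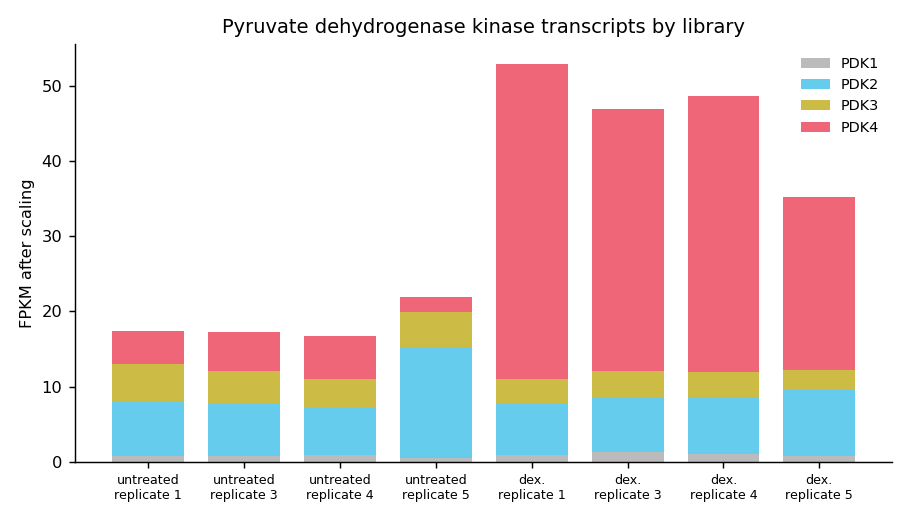
Stacked FPKM after scaling of PDK1, PDK2, PDK3 and PDK4 in each of the 8 libraries, with untreated libraries on the left and dexamethasone (dex.) on the right. The PDK4 segment is 2.04 to 5.67 FPKM high in untreated and 23.1 to 41.9 FPKM high in dexamethasone libraries, and untreated replicate 5 has the highest PDK2 segment.

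PDP1, the catalytic subunit of the main PDH phosphatase (ENSG00000164951, chromosome 8, 93857807 to 93926066), stood at 2.85, 2.67, 4.49 and 2.4 FPKM untreated and at 3.78, 5.16, 7.18 and 2.4 FPKM after dexamethasone. The groups overlapped, and the dexamethasone values spread from 2.4 to 7.18 FPKM. Its log2 fold change was 0.41 (95% interval -0.19 to 1, adjusted p = 0.277 by limma, SE 0.265), so a change of either sign lies within the interval, and it was 0.14 with the GC trend removed. PDP2, the second catalytic subunit, was at 4.61 ± 0.976 and 4.79 ± 0.854 FPKM (n = 4 each, SD, log2 fold change 0.05, limma adjusted p = 0.843).

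The summed kinases over the summed PDP1 and PDP2 gave a ratio of 2.89, 2.28, 1.7 and 2.95 in untreated and 5.61, 5.19, 3.88 and 5.3 in dexamethasone libraries. The groups did not overlap, and the mean ratio was 2.03-fold higher after dexamethasone (exact permutation p = 0.0286, two-sided, adjusted p = 0.0286). The adjusted p was 0.0571 without untreated replicate 3 or untreated replicate 4, with differences of 2.48 and 2.29 against 2.54 with all libraries. These are transcript levels, and neither protein nor phosphorylation was analysed here.

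Of the complex that these enzymes act on, PDHA1, the E1 subunit that carries the phosphorylation sites, rose from 28.2 ± 1.26 to 40.6 ± 1.01 FPKM (n = 4 each, SD), a log2 fold change of 0.51 (adjusted p = 0.00693 by limma, SE 0.108). DLD, the E3 subunit shared with other dehydrogenases, rose from 16.3 ± 4.32 to 28.5 ± 5.97 FPKM (limma adjusted p = 0.0269). Its log2 fold change of 0.78 lost the call without untreated replicate 1 (0.73) or dexamethasone replicate 1, 3 or 4 (0.74, 0.75 and 0.68), and with no scaling (0.78, limma adjusted p = 0.0807). PDHB, DLAT, PDHX and the regulatory subunit PDPR had log2 fold changes of 0.14, 0.19, 0.17 and 0.10 (limma adjusted p = 0.497, 0.508, 0.317 and 0.667).

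Around pyruvate itself, 5 of 14 listed genes were called, all higher: PDHA1, DLD, MPC1, LDHB and SLC16A3. That is 35.7%, against 26.8% of all genes tested, and the count was 3 with no scaling and without untreated replicate 1 or dexamethasone replicate 1, 3 or 4. The list's median log2 fold change was 0.22. This list and those below were chosen with earlier results of these data known, and some genes stand in several lists. Their shares beside that of all genes are therefore descriptions and not tests. SLC16A3, an exporter of lactate, rose from 22.2 ± 4.09 to 51.4 ± 13.8 FPKM (n = 4 each, SD, log2 fold change 1.15, adjusted p = 0.00316 by limma, SE 0.21). MPC1, a subunit of the carrier that brings pyruvate into the mitochondrion, rose from 3.14 ± 0.145 to 5.71 ± 1.17 FPKM (log2 fold change 0.68, limma adjusted p = 0.00635), and with the GC trend removed it was 0.46 and lost the call. LDHB, a lactate dehydrogenase subunit, rose from 423 ± 98.3 to 746 ± 142 FPKM (log2 fold change 0.83, limma adjusted p = 0.025). LDHB lost the call without untreated replicate 1 (0.87) or dexamethasone replicate 1, 3 or 4 (0.73, 0.83 and 0.80), and with no scaling (0.83, limma adjusted p = 0.0681). LDHA, the partner subunit, was at 619 ± 73 and 608 ± 103 FPKM (limma adjusted p = 0.9).

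ANGPTL4 (ENSG00000167772, chromosome 19, 8363289 to 8374373) encodes a secreted inhibitor of lipoprotein lipase, which it keeps from releasing fatty acids from circulating triglyceride. It stood at 5.14, 4.89, 3.71 and 4.94 FPKM without treatment, in the same replicate order, and at 63, 68.9, 48.5 and 79.2 FPKM after dexamethasone. The groups lay far apart, and replicate 4 was the lowest library of both. Means were 4.67 ± 0.647 and 64.9 ± 12.8 FPKM (n = 4 each, SD), a log2 fold change of 3.53 (adjusted p = 9.01e-07 by limma, SE 0.168). After dexamethasone it was the most abundant of the 10 genes.

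The enzyme that ANGPTL4 acts on was not seen in these cells: LPL was listed at 0 in all 8 libraries. GPIHBP1, which anchors LPL on capillary cells, had at most 0.0216 FPKM, and ANGPTL8, a related inhibitor, at most 0.0626 FPKM. Of 15 listed genes of lipoprotein lipase and triglyceride breakdown, 14 were found, 9 were tested, 4 were called higher and 1 lower (55.6% called, against 26.8% of all genes), with a median log2 fold change of 0.41. LIPE, hormone-sensitive lipase, fell from 3.03 ± 0.878 to 0.912 ± 0.387 FPKM (n = 4 each, SD), a log2 fold change of -1.07 (adjusted p = 0.00197 by limma, SE 0.179). MGLL, monoglyceride lipase, rose from 31 ± 3.5 to 48.8 ± 6.6 FPKM (log2 fold change 0.64, limma adjusted p = 0.00915). ABHD5, the co-activator of adipose triglyceride lipase, rose by 0.57 on the log2 scale (limma adjusted p = 0.0121), and with the GC trend removed it was 0.22 and lost the call.

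The proprotein convertases PCSK5 and PCSK6, of the family that cleaves ANGPTL proteins, were the remaining called genes. FURIN, the listed convertase with the highest FPKM, was not called, at 20.4 ± 3.88 and 21.1 ± 3.09 FPKM (log2 fold change 0.05, limma adjusted p = 0.824). PCSK5 rose from 0.718 ± 0.227 to 1.55 ± 0.278 FPKM (n = 4 each, SD, log2 fold change 0.58, limma adjusted p = 0.00811). PCSK6 had a log2 fold change of 0.49 (limma adjusted p = 0.0247), and it lost the call without untreated replicate 1, 3 or 4 (0.50, 0.42 and 0.47) or dexamethasone replicate 3, 4 or 5 (0.46, 0.52 and 0.44).

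CPT1A, the gated entry step for long-chain fatty acids at the outer mitochondrial membrane (ENSG00000110090, chromosome 11, 68754620 to 68844410), was the most abundant of the 10 genes in untreated cells. It stood at 19.6, 20.1, 18.2 and 21.3 FPKM untreated and at 18, 22.2, 19.5 and 26 FPKM after dexamethasone. The groups overlapped, with a log2 fold change of 0.10 (95% interval -0.21 to 0.41, limma adjusted p = 0.626). CPT2, the inner-membrane partner (ENSG00000157184, chromosome 1, 53196429 to 53214197), stood at 4.57, 3.92, 4.77 and 6.92 FPKM untreated and at 4.36, 5.24, 5.32 and 5.62 FPKM after dexamethasone. Its log2 fold change was 0.04 (95% interval -0.33 to 0.40, limma adjusted p = 0.876), and it was -0.05 without untreated replicate 3. CPT2 overlaps the coding gene CZIB on the opposite strand.

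**Figure D3:**
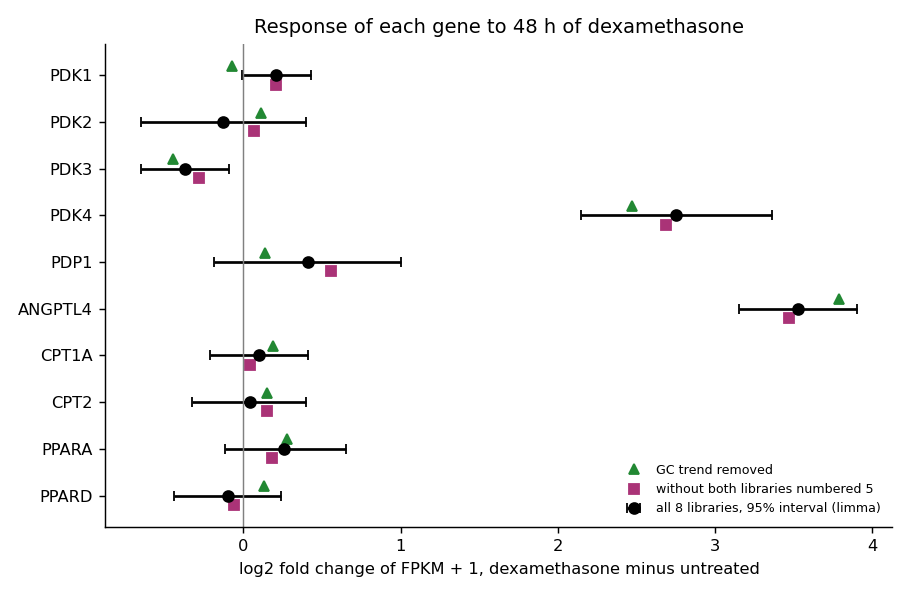
Log2 fold change of FPKM + 1, dexamethasone minus untreated, for each of the 10 genes: black points with 95% intervals from all 8 libraries, green triangles with the GC trend removed, and purple squares without both libraries numbered 5. PDK4 lies between 2.47 and 2.75 and ANGPTL4 between 3.47 and 3.79 in these settings, while the 8 other genes lie between -0.45 and 0.56.

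Of 20 listed genes of the carnitine shuttle and beta-oxidation, 19 were tested, 4 were called higher and 0 lower (21.1% called, against 26.8% of all genes), and the median log2 fold change was 0.26. SLC22A5, the carnitine importer, rose from 8.21 ± 1.5 to 15.1 ± 0.522 FPKM (n = 4 each, SD, log2 fold change 0.82, adjusted p = 0.00183 by limma, SE 0.137). DECR1, a reductase for unsaturated fatty acids, rose from 15.2 ± 1.74 to 27.2 ± 2.9 FPKM (log2 fold change 0.80, limma adjusted p = 0.00162), and with the GC trend removed it was 0.48 and lost the call. ACAT1, a mitochondrial thiolase, rose from 15.9 ± 2.06 to 24.4 ± 1.44 FPKM (log2 fold change 0.59, limma adjusted p = 0.00788). ACADM, the medium-chain dehydrogenase, had a log2 fold change of 0.85 (limma adjusted p = 0.0314). It lost the call without untreated replicate 1 (0.78) or dexamethasone replicate 1, 3 or 4 (0.74, 0.91 and 0.90), and with no scaling (0.85, limma adjusted p = 0.076). The count of called genes was 9 higher and 1 lower without both libraries numbered 5, and 8 higher without untreated replicate 5. Calls over all genes rose in these settings too, to 5533 of 12236 and 3876 of 12279 tested, from 3259 of 12161.

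Of 14 listed genes of malonyl-CoA and acyl-CoA supply, 11 were tested, 6 were called higher and 0 lower (54.5% called, against 26.8% of all genes), and the median log2 fold change was 0.42. FABP5, a fatty acid-binding protein, was the only tested gene of the list with a negative fold change. It was at 35.4 ± 8.28 and 22.9 ± 3.91 FPKM (log2 fold change -0.59) and missed the threshold (limma adjusted p = 0.0552). A gene of the list was called lower in 5 of the 19 other settings. These were without untreated replicate 5, without both libraries numbered 5, with a replicate block, and with the GC trend removed, with or without the block. ACSL1, a long-chain acyl-CoA synthetase, was at 5.6, 5.4, 6.8 and 5.52 FPKM untreated and at 49.4, 59.6, 48.6 and 66.7 FPKM after dexamethasone. Its log2 fold change was 3.05 (adjusted p = 6.58e-07 by limma, SE 0.142), between those of PDK4 and ANGPTL4. The synthetases ACSL3 and ACSL4 rose by 0.85 and 1.08 on the log2 scale (limma adjusted p = 0.00352 and 0.00994). ACSL5 went from 0.0323 ± 0.0151 to 1.25 ± 0.243 FPKM (n = 4 each, SD, limma adjusted p = 2.15e-05) and passed the filter only through its dexamethasone values. It is counted among the 6 called genes and in the 54.5%, so that share rests in part on the filter.

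ACACB, which makes the malonyl-CoA that inhibits CPT1 enzymes, rose from 6.77 ± 0.243 to 10.6 ± 0.552 FPKM (n = 4 each, SD, log2 fold change 0.58, limma adjusted p = 0.00314). ACACA, which also makes malonyl-CoA, had higher values and was not called, at 44.5 ± 2.19 and 45.5 ± 8.26 FPKM (log2 fold change 0.02, limma adjusted p = 0.949). MLYCD, which breaks malonyl-CoA down, was not called either (log2 fold change 0.13, limma adjusted p = 0.349). SLC27A2, a fatty acid transporter, had a log2 fold change of 0.42 (limma adjusted p = 0.027) and lost the call without untreated replicate 1 or 4 (0.42 and 0.44) or dexamethasone replicate 1, 3 or 4 (0.40, 0.39 and 0.44), and with no scaling (0.42, limma adjusted p = 0.0831).

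PPARA, the receptor best known for fasting responses in liver (ENSG00000186951, chromosome 22, 46150521 to 46243756), was low, at 1.33, 1.35, 1.26 and 0.794 FPKM untreated and 1.94, 2.21, 0.891 and 1.59 FPKM after dexamethasone. The groups overlapped, and dexamethasone replicate 4 lay below 3 of the 4 untreated libraries. The log2 fold change was 0.26 (95% interval -0.12 to 0.65, adjusted p = 0.28 by limma, SE 0.172). PPARD, the widely expressed family member (ENSG00000112033, chromosome 6, 35342558 to 35428191), stood at 4.32, 4.08, 4.38 and 6.14 FPKM untreated and at 3.53, 4.45, 4.14 and 5.19 FPKM after dexamethasone. Its log2 fold change was -0.10 (95% interval -0.44 to 0.24, limma adjusted p = 0.649) and 0.13 with the GC trend removed.

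PPARG, the family member known from fat cells, was the most abundant PPAR transcript in both groups, at 16.1 ± 1.69 and 15.6 ± 0.858 FPKM (n = 4 each, SD, log2 fold change -0.04, limma adjusted p = 0.815). The shared partner RXRA was at 22.6 ± 2.72 and 27.1 ± 4.43 FPKM (limma adjusted p = 0.243), and with the GC trend removed its log2 fold change was 0.49 and passed (limma adjusted p = 0.0014). RXRB was at 11.3 ± 3.44 and 9.25 ± 2.57 FPKM (n = 4 each, SD, limma adjusted p = 0.413). Of the 10 listed partners, 8 were tested, 1 was called higher and 1 lower (25% called, against 26.8% of all genes), with a median log2 fold change of 0.02. PPARGC1B, a coactivator of oxidative genes, rose from 1.8 ± 0.427 to 5.23 ± 0.609 FPKM (n = 4 each, SD, log2 fold change 1.16, adjusted p = 0.000349 by limma, SE 0.145). PPRC1, a relative of that coactivator, fell from 25.7 ± 3.96 to 15.9 ± 2.09 FPKM (log2 fold change -0.65, limma adjusted p = 0.00924). PPARGC1A, the best known of the family, had 0.00781 to 0.0221 FPKM untreated and 0.0588 to 0.117 FPKM after dexamethasone and was under the filter. Without the filter 2 partners were called higher, as also with the GC trend removed.

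Among 27 listed PPAR target genes (26 found) besides PDK4, ANGPTL4 and CPT1A, 15 were tested, 6 were called higher and 1 lower (46.7% called, against 26.8% of all genes), and the median log2 fold change was 0.21. The higher ones included ACSL1 and ACADM, named above, CIDEC, PLIN2 and EHHADH. CIDEC, a lipid droplet protein, went from 0.712 ± 0.171 to 67.8 ± 17.4 FPKM (n = 4 each, SD, log2 fold change 5.30, limma adjusted p = 7.76e-08). PLIN2, which coats lipid droplets, rose from 17.1 ± 2.52 to 41.5 ± 4.12 FPKM (log2 fold change 1.24, limma adjusted p = 0.000172). EHHADH, a peroxisomal oxidation enzyme, rose from 1.37 ± 0.389 to 2.55 ± 0.159 FPKM (log2 fold change 0.60, limma adjusted p = 0.00854). UCP2, an uncoupling protein family member, was the lower gene, at 30.7 ± 11.6 and 17.8 ± 2.46 FPKM (n = 4 each, SD, log2 fold change -0.70, limma adjusted p = 0.0432). UCP2 lost the call without untreated replicate 3 or 4 (-0.75 and -0.77) or dexamethasone replicate 1, 3 or 4 (-0.63, -0.71 and -0.68). The targets CYP4A11 and FABP1, known from liver, were listed at 0 in all 8 libraries.

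FOXO factors are known regulators of PDK4. FOXO1 rose from 1.48 ± 0.251 to 7.76 ± 1.28 FPKM (n = 4 each, SD, log2 fold change 1.82, adjusted p = 1.68e-05 by limma, SE 0.141) and FOXO3 from 3.03 ± 0.442 to 11.4 ± 0.899 FPKM (log2 fold change 1.63, limma adjusted p = 1.74e-05). FOXO4 rose by 0.73 on the log2 scale (limma adjusted p = 0.00163), so 3 of 4 listed FOXO genes were tested and all 3 were called higher. Of all genes tested, 26.8% were called in either direction and 12.6% were called higher. A link between these FOXO genes and PDK4 was not tested. FOXO6 was under the filter, at 0.363, 0.436, 0.362 and 0.815 FPKM untreated and 0.137, 0.206, 0.154 and 0.183 FPKM after dexamethasone, and without the filter 1 FOXO gene was called lower. The FOXO3 value is uncertain, since a near-identical copy of this gene can share its reads.

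**Figure D4:**
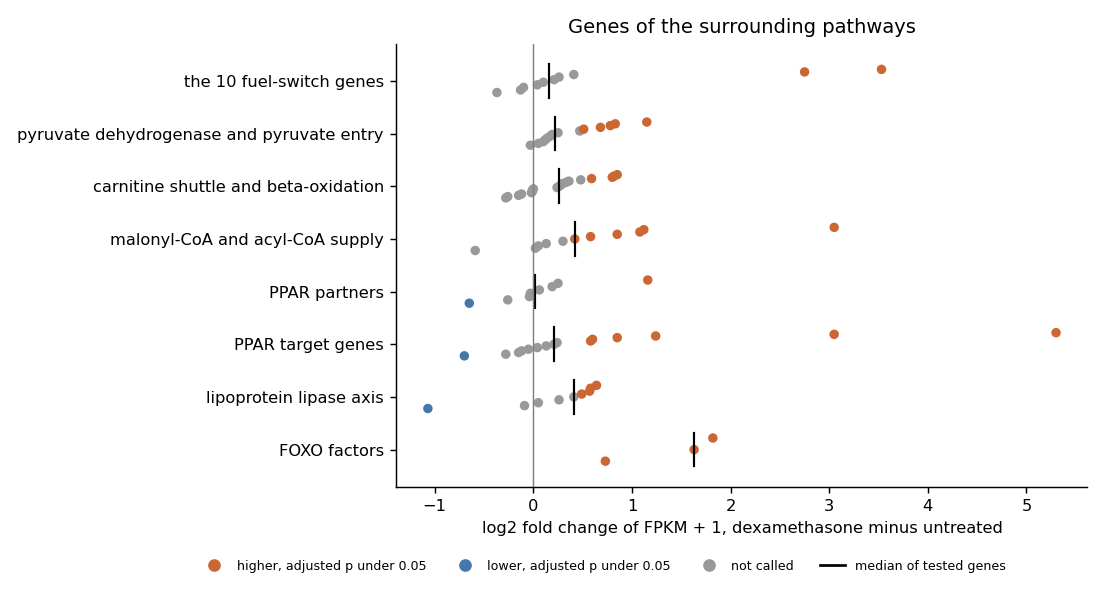
Log2 fold change of FPKM + 1, dexamethasone minus untreated, for each tested gene of the fuel-switch group and of 7 pathway lists, 1 point per gene, with orange for called higher, blue for called lower, grey for not called and a black line for the list median. The 3 FOXO points all lie to the right of 0, while the medians of the other lists lie between 0.02 and 0.42.

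The genes whose pattern over the 8 libraries was most like that of PDK4 were DOCK4, FGD4 and ERRFI1. Likeness was the root mean square difference between log2(FPKM + 1) profiles after centring each gene on its own mean, which was 0.176, 0.222 and 0.235. The genes named here were picked by this measure from the same 8 libraries, so their shared pattern is no separate result. DOCK4 was at 5.97, 7.01, 5.99 and 2.41 FPKM untreated and at 38.9, 34.9, 34.4 and 26.2 FPKM after dexamethasone, and like PDK4 it was lowest in replicate 5 of both groups. The genes most like ANGPTL4 were SDK2, PPL and ALPP, with differences of 0.15, 0.171 and 0.188. PPL was at 4.16, 3.88, 3.9 and 4.46 FPKM untreated and at 50.3, 52.6, 47 and 55.8 FPKM after dexamethasone. ALPP has near-identical relatives with which it can share reads.

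**Figure D5:**
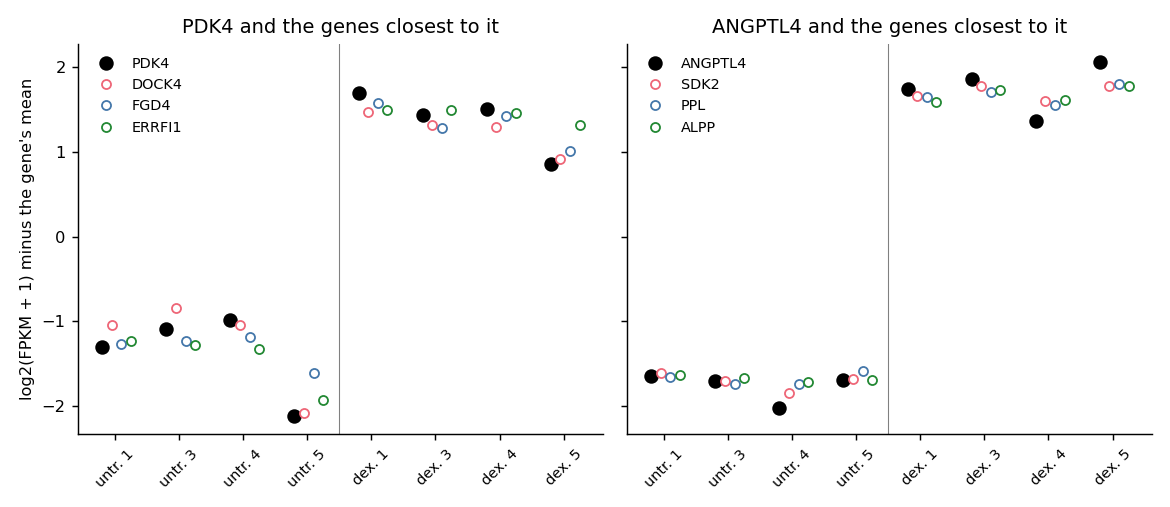
Log2(FPKM + 1) minus each gene's own mean over the 8 libraries, with untreated (untr.) libraries left and dexamethasone (dex.) libraries right of the grey line. Filled black points are PDK4 or ANGPTL4 and open points are the 3 genes closest to each. PDK4 is lowest in replicate 5 of both groups, whereas ANGPTL4 is lowest in replicate 4 of both.

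The depth, estimated from steps between the low FPKM values, was 24850000 to 28660000 fragments per library, and the files hold no counts to check it. The treatment marker FKBP5 was at 4 to 6.76 FPKM in untreated and 95.4 to 163 FPKM in dexamethasone libraries, as the labels have it. The libraries numbered 5 lay at the edge of their groups: untreated replicate 5 was the lowest of its group for 4 of the 10 genes (PDK1, PDK4, PDP1 and PPARA) and the highest for 4 (PDK2, CPT1A, CPT2 and PPARD). Dexamethasone replicate 5 was the lowest for PDK1, PDK3, PDK4 and PDP1 and the highest for 5 genes, ANGPTL4 among them. Transcripts of PDK1, PDK4 and PDP1 have 39.5, 39.4 and 40% G and C, and those of PDK2 and PPARD 59.7 and 59.1%. PDK3, PPARA, CPT1A, CPT2 and ANGPTL4 have 45.3, 48.1, 50.8, 51.5 and 63.3%. ANGPTL4 was not highest in untreated replicate 5, PDK3 was not lowest there, and PPARA was not lowest in dexamethasone replicate 5. A link of these positions with G and C content was not tested. Without both libraries numbered 5 PDK4 had a log2 fold change of 2.69 (adjusted p = 4.02e-06 by limma, SE 0.113) and ANGPTL4 one of 3.47 (adjusted p = 5.63e-06 by limma, SE 0.156).

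The label of an epithelial line was checked against markers. The 6 epithelial markers summed to 3320 to 6210 FPKM in untreated and 4470 to 7560 FPKM in dexamethasone libraries, mostly the keratins KRT7, KRT8 and KRT18, and EPCAM had at most 0.705 FPKM. Of this list CDH1 was called higher (6.71 ± 0.834 to 18.3 ± 2.24 FPKM, limma adjusted p = 9.17e-05) and KRT19 lower (log2 fold change -1.49, limma adjusted p = 0.00153). PTPRC and CD3E, which mark leukocytes, were listed at 0 in all libraries, while the leukocyte list, through CD68 and CD14, summed to 5.32 to 9.17 FPKM untreated and 2.98 to 4.1 FPKM after dexamethasone. CD68 and CD14 were called lower (log2 fold change -0.73 and -0.58, limma adjusted p = 0.0107 and 0.019), as were 14.2% of all genes tested. The endothelial, adipocyte and hepatocyte markers summed to at most 0.17, 0.18 and 0.127 FPKM. The fibroblast markers summed to 1.69 to 2.67 FPKM in untreated and 0.58 to 0.837 FPKM in dexamethasone libraries. COL1A1 was most of the untreated sum, and DCN was listed at 0 there and at 0.17 to 0.388 FPKM after dexamethasone. COL1A1 was called lower (log2 fold change -1.15, limma adjusted p = 5.22e-05) and passed the filter only through its untreated values. The part of these markers in the results above was not tested. In bulk RNA fewer cells of a kind and less RNA per cell cannot be told apart.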

How the data were processed

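RNA from 8 wells was depleted of ribosomal RNA, primed with random hexamers and sequenced as paired ends, per the labels' protocols. Per the submitters' processing notes, the authors used FastQC 0.11.9, cutadapt 3.4, STAR 2.7.9a on GRCh38, featureCounts (Subread 2.0.3) and DESeq2 1.32.0; annotation release and strand setting are not given in the sources used here. The deposited values are described as counts but are not whole, and were read as FPKM: this reading is inferred from the values. The transcript lengths behind them are not given in the sources used here. Ranks of abundance between genes therefore depend on lengths that are not known. The best-fitting depth was 24850000 to 28660000 fragments per library. At that depth 40.6% to 46.4% of low values lay within 0.1 of an integer, against 20% by chance at a depth fixed beforehand. The depth was chosen to make this share largest, so the chance level for it is higher and was not estimated. Counts could not be rebuilt, so a count model was not used.

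Libraries were brought to one scale by TMM (trimming 0.3 of M and 0.05 of A). Genes at 0.5 FPKM or more in at least 4 libraries (3 where a library was left out) were tested on log2(FPKM + 1) with limma 3.58.1 in R 4.3.3 (eBayes with trend and robust, group only), called at an adjusted p under 0.05. This log2 scale understates changes of low genes. Simulated data with known changes were used to test the code. Exact permutation tests compared the kinase sums. Alternatives were the pseudocount, filter, scaling, variance model, replicate block, GC trend (spline with 5 degrees of freedom on GENCODE v44 GC content) and left-out libraries.

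Genes were named by a rule: the 10 genes, the 2 genes of smallest p in each list, the remaining subunits and partners, and the closest profiles. Other called list genes, and marker genes were named to account for counts, after their values were seen. The members and lists were chosen with earlier results of these data known. Some listed genes are counted but not reported here by name.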

Additional observations from a re-analysis of the deposited data

Results flagged for a closer look

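In 26 groups of 4 values (the 10 genes and 3 kinase measures in each group), the highest or lowest library was set against the range of its group, and 3 groups had a library that stood apart. Chance gives about 1 in 20. All 3 were untreated replicate 5, in values after scaling between libraries. PDK2 was 14.7 FPKM there and 6.22 to 7.34 FPKM in the other untreated libraries. PPARD was 6.14 FPKM there and 4.08 to 4.38 FPKM in the others. The summed PDK1 to PDK4 was 22 FPKM there and 16.7 to 17.4 FPKM in the others, although PDK4 itself was lowest in that library. Its scaling factor, 0.8205, was the lowest of the 8, which raised its printed values. As deposited, PDK2 was 12.1 FPKM there and 6.72 to 7.59 FPKM in the other untreated libraries, and PPARD was 5.04 FPKM there and 4.42 to 4.73 FPKM in the others. PDK1, PDK3 and PDK4 were lowest there as deposited, at 0.456, 3.82 and 1.67 FPKM. The deposited sum of the 4 kinases there lay within the range of the other untreated libraries. By the same rule, PPARD and the sum did not stand apart before scaling. PDK2 did, and the source of its difference was not tested.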

How the results depend on the processing

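PDK4 and ANGPTL4 kept their direction and call in all 19 settings tried. With one library left out, their log2 fold changes ranged from 2.50 to 2.93 and from 3.43 to 3.65, and 2 of the 10 genes were called each time. The count of called genes, 3259, ranged from 2285 to 3876 with one library left out and was 5533 without both libraries numbered 5. PDK3 passed without the filter (-0.37), without trend and robust (-0.37) and with the GC trend removed (-0.45). With the GC trend removed these reversed: PDK1 (-0.07), PDK2 (0.11), PPARD (0.13), DLAT (-0.07), PDHX (-0.07) and PDP2 (-0.06). PDK2 was also 0.07 without both libraries numbered 5, PPARG 0.01 there. With one library left out, PDK2 ranged from -0.25 to 0.11, CPT2 from -0.05 to 0.16, PDP2 from -0.09 to 0.13 and PDPR from -0.03 to 0.17. The kinase ratio difference ranged from 2.29 to 2.91 there. Without both libraries numbered 5 the PDK4 share differed by 46.5, the kinase sum by 34.2 and the ratio by 2.6 (exact permutation p = 0.1 each, the smallest possible), and 5 list genes were called lower, against 3. The cause was not tested.

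The labels do not say that a shared number pairs the wells, and the data did not settle it: deviations of same-numbered libraries correlated at 0.294, 0.0671, 0.315 and 0.713 for 1, 3, 4 and 5, and 5 of 8 libraries correlated best with their own number. With a replicate block 5739 of 12161 genes tested were called, and 4 of the 10, which is a smaller share. PDK3 at -0.37 and PDP1 at 0.41 were then past the threshold. The kinase share, sum and ratio differed by 48.9, 27.6 and 2.54 (exact sign-flip p = 0.125, the smallest possible). With the block and the GC trend removed 5290 of 12130 genes tested were called, 2627 of them lower, and 5 list genes were called lower. PDK1 was then at -0.07, PDK2 at 0.11, PDK3 at -0.45, PPARD at 0.13, DLAT at -0.07, PDHX at -0.07 and PDP2 at -0.06. Limits set by depth were not compared between genes, since no counts were at hand.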
